A study of Mus musculus with 7 samples.

Results

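Msx1, Msx2, Pax9, Lhx6 and Lhx8 are 5 transcription factor genes known for their part in the mesenchyme of the developing tooth, and open chromatin was read around each of them in 7 mouse ATAC-seq libraries. The 5 genes were given by name, and their regions were taken as every peak inside the gene body or within 100 kb of it. They are 5 of 20661 autosomal protein-coding genes measured the same way, and their windows held 126 of 128642 merged autosomal regions. A merged region is a stretch in which peaks of any of the 7 libraries share at least 1 bp. The windows held 84 and 62 peaks in the ectoderm libraries, 37 and 29 in the Sox2-positive libraries, 63 in the incisor, 63 in the lower molar and 67 in the upper molar.

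ATAC-seq uses a transposase to cut and tag DNA that is free of nucleosomes, and Omni-ATAC is the variant used here. Ectoderm was peeled from the first pharyngeal arch, the embryonic rudiment of the jaws, at embryonic day 11.5 (2 libraries). Sox2-positive cells were sorted by fluorescence from the labial cervical loop, where the epithelium of the ever-growing lower incisor is renewed, at postnatal day 2 (P2) in Sox2-GFP reporter mice, in which the Sox2 promoter drives GFP (2 libraries). The labels call the sorted cells dental epithelial stem cells. Whole P2 teeth gave 1 library each, from a lower incisor, a lower first molar and an upper first molar, and these mix epithelium, mesenchyme and other cells. Strain, other alleles and pooling of animals are not given in the sources used here, nor is it said whether replicates came from separate animals, so any spread between them may be technical. In such bulk material fewer cells of a type and less open chromatin per cell cannot be told apart.

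Tooth formation runs on signals exchanged between the oral epithelium and the neural crest mesenchyme beneath it. FGF8 and BMP4 from the early epithelium switch on homeobox genes in the mesenchyme, which then take over the instruction of the tooth. MSX1 and PAX9 act together in the mesenchyme to keep Bmp4 on, and teeth lacking either arrest at the bud stage. MSX2, a close relative of MSX1, is used in the mesenchyme and also in the dental epithelium, including the cells that make enamel. LHX6 and LHX8 are LIM-homeodomain proteins of the oral side of the first arch mesenchyme, and molars fail to form when both are lost.

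The promoter at the first annotated start of each gene is shown because peaks at the starts are the first result, and because the 5 differ in base composition. The sequences run from 250 bases before to 50 bases after the first annotated start in RefSeq (GRCm38.p6), 5′ to 3′ in the direction of transcription, and all 5 genes were matched by symbol. Capitals mark the homeodomain core TAATTA or TAATTG, the CCAAT box CCAAT, the GC box GGGCGG and the TATA box TATAAA, each searched on both strands with overlaps kept. The windows are chr5:37824536-37824835 (minus strand) for Msx1, chr13:53472731-53473030 (minus) for Msx2, chr12:56695221-56695520 (plus) for Pax9, chr2:36105359-36105658 (minus) for Lhx6 and chr3:154330511-154330810 (minus) for Lhx8.
Msx1: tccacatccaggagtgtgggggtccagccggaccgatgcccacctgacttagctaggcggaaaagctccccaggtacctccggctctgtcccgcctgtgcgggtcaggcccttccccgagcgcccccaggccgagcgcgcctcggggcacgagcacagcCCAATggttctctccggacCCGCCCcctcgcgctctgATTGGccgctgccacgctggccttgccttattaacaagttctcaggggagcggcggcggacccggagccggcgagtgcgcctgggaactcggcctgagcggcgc
Msx2: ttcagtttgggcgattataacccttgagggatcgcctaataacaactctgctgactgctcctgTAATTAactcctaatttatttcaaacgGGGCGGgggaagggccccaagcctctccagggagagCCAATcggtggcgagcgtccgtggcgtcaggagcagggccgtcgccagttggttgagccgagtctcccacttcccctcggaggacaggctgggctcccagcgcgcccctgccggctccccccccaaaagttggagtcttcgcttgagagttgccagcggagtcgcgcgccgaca
Pax9: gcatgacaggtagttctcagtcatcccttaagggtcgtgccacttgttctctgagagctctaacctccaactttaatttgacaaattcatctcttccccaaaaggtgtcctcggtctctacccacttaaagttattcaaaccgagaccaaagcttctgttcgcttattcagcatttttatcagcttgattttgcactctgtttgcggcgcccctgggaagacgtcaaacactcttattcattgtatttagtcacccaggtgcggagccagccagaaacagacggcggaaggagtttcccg
Lhx6: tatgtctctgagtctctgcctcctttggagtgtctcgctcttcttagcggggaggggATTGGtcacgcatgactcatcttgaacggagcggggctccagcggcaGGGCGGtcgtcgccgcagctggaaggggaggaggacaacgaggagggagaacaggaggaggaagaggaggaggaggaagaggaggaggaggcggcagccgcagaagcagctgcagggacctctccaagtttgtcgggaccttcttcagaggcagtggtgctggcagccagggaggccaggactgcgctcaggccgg
Lhx8: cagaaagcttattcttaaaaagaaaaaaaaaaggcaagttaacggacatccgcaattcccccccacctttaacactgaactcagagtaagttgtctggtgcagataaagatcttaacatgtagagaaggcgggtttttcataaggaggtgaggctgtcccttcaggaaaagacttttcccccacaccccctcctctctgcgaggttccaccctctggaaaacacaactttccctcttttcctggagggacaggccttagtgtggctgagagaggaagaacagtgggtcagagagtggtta

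The Msx1 promoter was 70.0% G and C with 29 CpG dinucleotides, against medians of 53.0% and 7.0 over 31396 promoters of the same length. Msx2 had 61.0% and 22, Lhx6 63.3% and 16, Pax9 47.0% and 11, and Lhx8 47.0% and 4. Lhx8 was thus the one member below the median in CpG number. Counted from the start base, Msx1 had CCAAT at −91 and, on the opposite strand, at −54, with the GC box on the opposite strand at −72. Msx2 had TAATTA at −187, the GC box at −160 and CCAAT at −124. The first of the 3 annotated Lhx6 starts had CCAAT on the opposite strand at −193 and the GC box at −146. Of the starts not shown, the second had the GC box at −48. The third had TAATTG at −229, CCAAT at −96 and TATAAA on the opposite strand at 3. The windows of Pax9 and Lhx8 held none of these letters. Among all promoters 37.3% held CCAAT, 36.0% the GC box, 13.6% the TATA box, 8.04% TAATTG and 5.27% TAATTA. A match here is a description of letters, and none was tested as a binding site.

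The peak lists held 39017 to 82461 peaks, the most in ectoderm replicate 1 and the fewest in Sox2-positive replicate 2, and sequencing depth is unknown because the lists hold no read counts. Counts are therefore given for the full lists and again for lists of equal length, the 38000 autosomal peaks of each library with the highest −log10 p. That selection keeps 47.0% of the first ectoderm list and 99.1% of the second Sox2-positive list, and it stops at a −log10 p of 4.79 in the former and 2.94 in the latter. Of 5 epithelial genes with an annotated start (Krt5, Krt14, Krt8, Krt18 and Epcam), every full list had a peak within 1 kb of every start, apart from Krt18 in the incisor. Of 8 mesenchymal genes, starts with a peak numbered 5 and 5 in ectoderm, 6 and 7 in the sorted Sox2-positive cells and 7, 7 and 8 in the whole teeth. The start of Pdgfra, a mesenchymal receptor, had none in either ectoderm library and one in each of the 5 P2 libraries, the sorted cells included. Summed over all 11 mesenchymal markers, the counts of peaks were 118 and 77 in ectoderm, 107 and 114 in the Sox2-positive cells and 141 to 161 in whole teeth. At equal list length the sums were 55 and 53, 95 and 113, and 77 to 103. The 3 odontoblast genes Dspp, Dmp1 and Ibsp summed to 18 and 9 in ectoderm, 12 and 28 in the sorted cells and 34 to 67 in whole teeth, and at equal length to 5 and 7, 7 and 28, and 10 to 33, so the second sorted library then exceeded both molars. Summed over 10 epithelial markers the counts were 230 and 153 in ectoderm, 110 and 107 in the sorted cells and 139 to 201 in whole teeth. At equal length they were 135 and 127, 98 and 106, and 98 to 123. All these sums add the counts of single genes, so a peak within 100 kb of more than 1 listed gene was counted for each. Gene by gene at equal length, Dspp, Dmp1 and Ibsp had 8, 10 and 10 peaks in Sox2-positive replicate 2. The lower molar had 5, 6 and 3 and the upper molar 3, 4 and 3. The labels call the sorted cells epithelial, and open starts of mesenchymal genes in them are a measured fact whose part in the results below was not tested.

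The members differed in how many libraries had a peak at the start. A peak lay within 1 kb of the start of Msx1, Msx2 and Pax9 in all 7 libraries, in full lists and at equal length. The same held for 56.5% of 16456 genes with an annotated start in full lists and for 52.4% at equal length, so the members were near the background. Lhx6 had a start peak in 4 libraries (both ectoderm and both molar) and Lhx8 in 6, with none in the first Sox2-positive library. At equal length no library had one at Lhx6, and 2 had one at Lhx8, ectoderm replicate 2 and Sox2-positive replicate 2.

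The signal of a peak is the caller's area under its significance curve and is not comparable between libraries, so ranks are given as the percent of a library's own list. Such a percent depends on the length of the list, as does a position counted from the strongest peak, so an order of libraries is stated where both scales give it. Over the Msx1 start the signal was 3056 and 2759 in ectoderm, 931 and 1736 in the Sox2-positive cells, 2321 in the incisor, 1389 in the lower molar and 1577 in the upper molar. These peaks ranked in the top 7.95% and 12.3% of the ectoderm lists, 28.8% and 14.5% of the Sox2-positive lists, and 10.3%, 20.9% and 18.6% of the incisor, lower molar and upper molar lists. By position they stood at 6424 and 6107 in ectoderm, 12066 and 5545 in the sorted cells, and 6409, 14384 and 12498 in the teeth, so the groups had no order at Msx1 that held on both scales. Over the Msx2 start the signal was 1750 and 1159 in ectoderm, 1367 and 1687 in the Sox2-positive cells, 2631 in the incisor, 2620 in the lower molar and 2933 in the upper molar. The Msx2 ranks were 19.4% and 32.7% in ectoderm, 17.9% and 15.2% in the Sox2-positive cells and 8.21%, 7.94% and 6.41% in the teeth. By position they stood at 15662 and 16265, 7494 and 5821, and 5094, 5468 and 4305. At Msx2 the 3 whole teeth ranked highest and ectoderm lowest on both scales, with no overlap between whole teeth, sorted cells and ectoderm.

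Over the Pax9 start the signal was 2419 and 2213 in ectoderm, 1379 and 945 in the Sox2-positive cells, 1879 in the incisor, 1622 in the lower molar and 1792 in the upper molar. The ranks were 12.4% and 17.2% in ectoderm, 17.7% and 31.0% in the Sox2-positive cells and 14.3%, 17.2% and 15.7% in the teeth, and the groups overlapped by position, from 7420 to 11870 over the 7 libraries. At Lhx6, whose annotation has 3 starts, peaks lay over the first start in ectoderm (signals 450 and 273) and in the lower and upper molars (624 and 782). They ranked at 63.6%, 84.3%, 46.1% and 39.0% of their lists, all weaker on both scales than any start peak of Msx1, Msx2 or Pax9. The second Lhx6 start lay under no peak, and the third under a peak of ectoderm replicate 2 alone, with a signal of 206. The signal of the region over the Lhx8 start was 977 and 457 in ectoderm, 351 in Sox2-positive replicate 2, 900 in the incisor, 526 in the lower molar and 947 in the upper molar. In ectoderm replicate 2 this peak lay beside the start base and not over it. The plot of ranks at named peaks shows every Lhx6 point below the points of the Msx1, Msx2 and Pax9 starts.

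**Figure D1:**
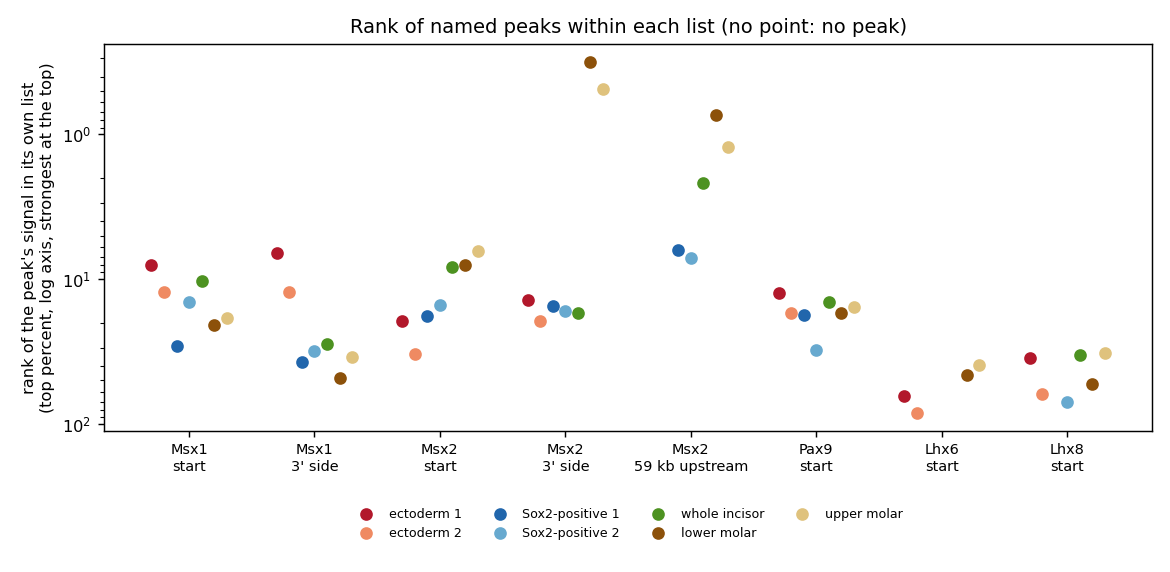
Rank of the peak's signal within its own list, as top percent on a log axis with the strongest at the top, for the start of each member and 3 other regions; each point is 1 library and a missing point means no peak. The Msx2 region on the 3′ side reaches 0.315% in the lower molar, the Msx2 region 59 kb upstream has no ectoderm point, and the Lhx6 start has 4 points, between 39.0% and 84.3%.

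The number of peaks around Msx1 was 18 and 16 in ectoderm, 8 and 10 in the Sox2-positive cells, 15 in the incisor, 10 in the lower molar and 12 in the upper molar. The ectoderm mean was 17.0 ± 1.41 (SD, n = 2) and the Sox2-positive mean 9.0 ± 1.41 (SD, n = 2), a difference of 8.0 that 9.61% of all genes exceeded. At equal length the counts were 8 and 9, 8 and 10, 7, 3 and 3, and the difference was −0.5. Choosing the 38000 by signal gave a difference of 1.0, so the ectoderm surplus around Msx1 shrank or turned with list length, and by −log10 p the molars then had the fewest peaks.

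Msx1 occupies chr5:37820491-37824585 (minus strand; all positions here are GRCm38), and its window holds 1 other protein-coding gene, Cytl1. Of its 28 merged regions 3 were open in all 7 libraries, namely the start, the 3′ side of the gene and a region 71.4 kb upstream (distances run from the annotated start to the middle of a region). The region on the 3′ side, chr5:37816661-37820418, spanned 3758 bp and began 0.073 kb past the gene end. It ranked in the top 6.62% and 12.3% in ectoderm, 37.1% and 31.4% in the Sox2-positive cells, 28.0% in the incisor, 48.3% in the lower molar and 34.7% in the upper molar. Both ectoderm libraries thus ranked above every P2 library there, as they did by position (5352 and 6118 against 12023 or later), and 0.214% of all autosomal regions were at least as wide.

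Far upstream of Msx1 a pair of adjoining regions followed the same order. The region at 69.4 kb, chr5:37893061-37894893, was open in 6 libraries with signals of 2772 and 2449 in ectoderm, 731 and 1105 in the Sox2-positive cells, 772 in the incisor and 537 in the upper molar, with no peak in the lower molar. The region at 71.4 kb, chr5:37895252-37896779, had signals of 2120 and 2033 in ectoderm, 735 and 666 in the Sox2-positive cells, 965 in the incisor, 707 in the lower molar and 715 in the upper molar. In ranks this was 15.2% and 19.1% in ectoderm and 30.9% to 43.2% in the P2 libraries, which did not overlap on either scale. At equal length neither molar kept a peak in either region. Next to them, chr5:37901529-37902399 (77.4 kb upstream) was open in both ectoderm libraries, with signals of 1307 and 1131, and in no P2 library in either list length.

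Msx1 had 6 regions open in both ectoderm libraries and in no P2 library, of which 1 remained so at equal length. It had 1 region open in all 5 P2 libraries and in neither ectoderm library, chr5:37720658-37721486, 99.0 kb past the gene end, with signals of 299 and 587 in Sox2-positive cells, 924 in the incisor, 248 in the lower molar and 567 in the upper molar. A neighbour at chr5:37725070-37726092 was open in both Sox2-positive libraries (499 and 775) and the incisor (289), and in no other library. Of these, at equal length, the first kept the sorted cells and the incisor and lost both molars, and the second kept the sorted cells alone. The nearest protein-coding gene of both regions was Stk32b, outside the window, at 3.92 and 8.43 kb, and not Msx1.

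**Figure D2:**
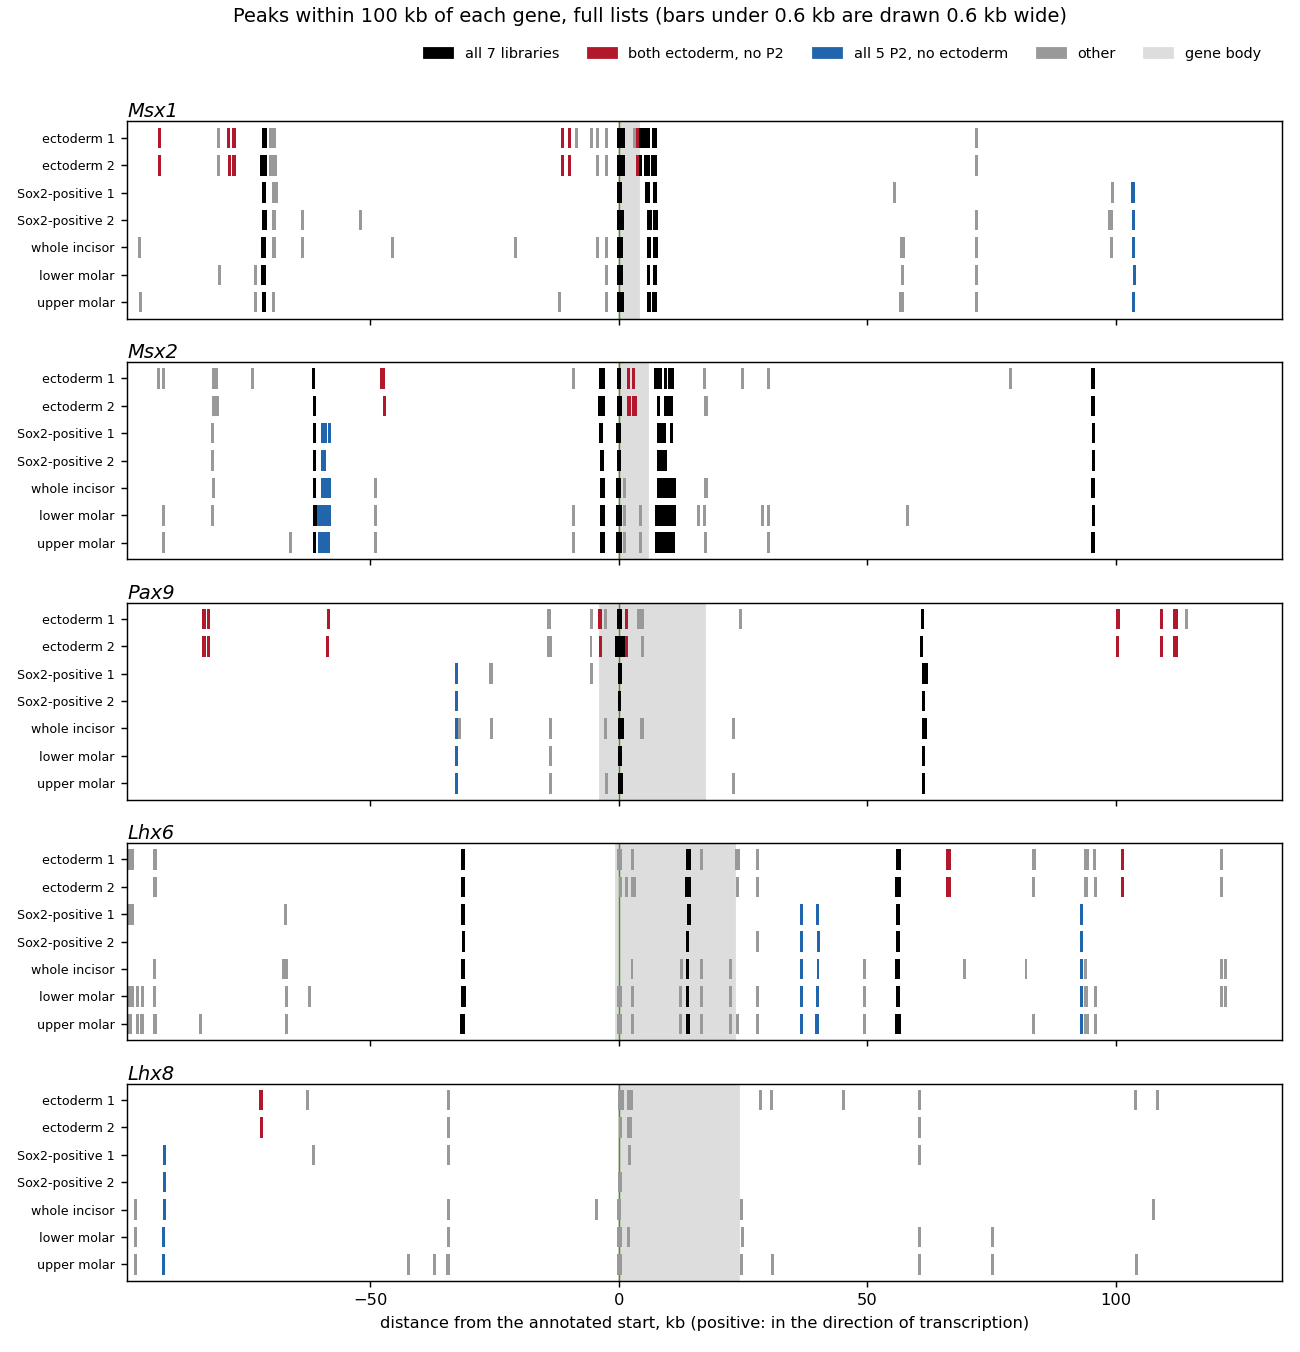
Peaks of each library around each gene in the full lists, as bars along the distance from the annotated start in kb, positive in the direction of transcription, with the gene body shaded. Bars narrower than 0.6 kb are drawn that wide, and their color gives the presence pattern of the merged region. Msx2 shows bars on its 3′ side in all 7 rows, longest in the molar rows, and a block of P2 bars 59.3 kb upstream. Pax9 shows 9 regions with bars in the 2 ectoderm rows and in no other.

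Around Msx2 the counts were 20 and 11 in ectoderm, 9 and 7 in the Sox2-positive cells, 13 in the incisor, 17 in the lower molar and 15 in the upper molar. The means were 15.5 ± 6.36 (SD, n = 2) in ectoderm and 8.0 ± 1.41 (SD, n = 2) in Sox2-positive cells, a difference of 7.5 that is close to the spread of the ectoderm replicates and that 11.6% of genes exceeded. It was 3.0 without ectoderm replicate 1 and 12 without ectoderm replicate 2. At equal length the counts were 9 and 9, 9 and 7, 10, 9 and 8, nearly level, with a difference of 1.0. Msx2 lies at chr13:53466881-53472780 (minus strand), and Sptlc1 and Gm38564 are the other genes of its window.

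Msx2 had 5 of 25 regions open in all 7 libraries, and 5 of 13 at equal length. They were the start, a region 3.42 kb upstream, a broad region on the 3′ side, a region 61.1 kb upstream, and one at the Sptlc1 start 95.3 kb downstream. The region 3.42 kb upstream, chr13:53475461-53476941, had summits within 6 bp of each other in all 7 libraries. Its signals were 3583 and 3075 in ectoderm, 1113 and 1151 in the Sox2-positive cells, 1658 in the incisor, 2245 in the lower molar and 2198 in the upper molar, and its ranks 5.46% and 9.98%, 23.6% and 25.1%, 16.9%, 10.6% and 11.4%. Ectoderm ranked above every P2 library on both scales, and the order among the P2 libraries depended on the scale.

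The broad region on the 3′ side of Msx2, chr13:53461322-53465554, spanned 4233 bp from 1.33 kb past the gene end, and 0.131% of all autosomal regions were at least as wide. Its strongest peak had a signal of 2243 and 1999 in ectoderm, 1521 and 1582 in the Sox2-positive cells, 1642 in the incisor, 6951 in the lower molar and 6245 in the upper molar. In the molars 1 peak covered 4165 bp and 4137 bp and ranked in the top 0.315% and 0.488%, while the other 5 libraries ranked between 14.0% and 19.6%. The position of the summit differed as well. In both ectoderm libraries the strongest peak had its summit 10.77 and 10.74 kb from the start, and in the 5 P2 libraries between 8.91 and 8.94 kb, so that the main summit of ectoderm and that of the P2 libraries lay apart inside 1 merged region.

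The other broad region of Msx2, chr13:53530710-53533358 at 59.3 kb upstream, spanned 2649 bp and was open in all 5 P2 libraries and in neither ectoderm library, in both list lengths. Its signals were 2405 and 2559 in Sox2-positive cells, 4509 in the incisor, 5837 in the lower molar and 5057 in the upper molar. In ranks these were 6.3% and 7.15%, 2.18%, 0.735% and 1.22%, among the strongest peaks of each list. The region directly beyond it, chr13:53533537-53534296, was open in all 7 libraries, with signals of 949 and 370 in ectoderm, 718 and 775 in the Sox2-positive cells, 1015 in the incisor, 1901 in the lower molar and 1875 in the upper molar. The reverse case lay at chr13:53553213-53554606, 81.1 kb upstream, where the 2 ectoderm peaks ranked at 11.7% and 17.0% and the peaks of the sorted cells, incisor and lower molar between 75.0% and 92.7%, with none in the upper molar. Within the gene body, chr13:53470309-53471187 and chr13:53469049-53470169 were open in both ectoderm libraries (signals 1983 and 934, and 1359 and 790) and in no P2 library in either list length.

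Of the members' 126 regions, 3 were 2.5 kb wide or wider, against 1.18% of all autosomal regions, and these were the 3′ side of Msx1 and both broad regions of Msx2. These are widths of merged regions, and a single library need not span them. On the 3′ side of Msx1 every library had separate peaks. In the upstream Msx2 region the lower molar peak ran from −60.578 to −57.939 kb, and that of Sox2-positive replicate 2 from −59.958 to −58.762 kb.

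Around Pax9 the counts were 18 and 15 in ectoderm, 6 and 3 in the Sox2-positive cells, 9 in the incisor, 4 in the lower molar and 6 in the upper molar. The means were 16.5 ± 2.12 (SD, n = 2) in ectoderm and 4.5 ± 2.12 (SD, n = 2) in Sox2-positive cells, and the difference of 12.0 was exceeded by 2.09% of all genes. At equal length the counts were 6 and 10, 6 and 3, 3, 2 and 2, the difference was 3.5, and 5.5% of genes exceeded it. Pax9 had the largest ectoderm surplus of the 5 genes in these lists, although at equal length ectoderm replicate 1 and Sox2-positive replicate 1 both had 6. With the top 50% of each list it had the smallest of the 5, 1.5.

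Pax9 lies at chr12:56691693-56712824 (plus strand, start at 56695471), between the homeobox gene Nkx2-9 and the mitochondrial carrier gene Slc25a21. Of its 22 regions 9 (40.9%) were open in both ectoderm libraries and in no P2 library, and 5 of 12 (41.7%) at equal length. The 5 included chr12:56681035-56681906, 14.0 kb upstream, which in full lists also had peaks in the 3 whole teeth. Of the 9, 2 lay in the Nkx2-9 body 83.4 and 82.5 kb upstream, 4 lay inside Slc25a21 between 82.7 and 94.7 kb past the end of Pax9, 2 lay in the Pax9 body and 1 lay between genes 58.4 kb upstream. The one with the best rank in its weaker library, chr12:56611635-56612565 in Nkx2-9, had signals of 1032 and 581 in ectoderm. Those inside Slc25a21 at chr12:56795504-56796333, chr12:56804428-56804914 and chr12:56807537-56807879 had signals of 1259 and 333, 1226 and 398, and 935 and 550, and kept peaks in both ectoderm libraries and in no P2 library at equal length. When only regions whose nearest protein-coding gene is Pax9 were counted, the difference between the group means was 4.5, below those of Msx1 and Msx2 counted the same way (10 and 6.5).

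Pax9 had 1 region with the opposite pattern, chr12:56662475-56663103, 32.7 kb upstream. It was open in all 5 P2 libraries and in neither ectoderm library in both list lengths, with signals of 372 and 1119 in Sox2-positive cells, 1113 in the incisor, 759 in the lower molar and 696 in the upper molar. The 5 summits lay within 66 bp. Besides the start, 1 region of Pax9 was open in all 7 libraries, chr12:56756206-56757517 inside Slc25a21, and at equal length it was open in the sorted cells and the incisor and in no other library.

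Around Lhx6 the counts were 17 and 15 in ectoderm, 9 and 7 in the Sox2-positive cells, 19 in the incisor, 24 in the lower molar and 23 in the upper molar. The means were 16.0 ± 1.41 (SD, n = 2) in ectoderm and 8.0 ± 1.41 (SD, n = 2) in Sox2-positive cells, a difference of 8.0 that 9.61% of genes exceeded. At equal length the counts were 9 and 10, 7 and 7, 9, 10 and 11, the difference was 2.5, and 10.5% of genes exceeded it. The molars had the highest Lhx6 counts in full lists, and at equal length the lower molar tied with ectoderm replicate 2. Both ectoderm counts of Lhx6 stayed above both Sox2-positive counts at equal length, by −log10 p and by signal. With the top 50% of each list they were 9 and 4 against 4 and 2, so ectoderm replicate 2 tied with Sox2-positive replicate 1.

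Lhx6 lies at chr2:36081950-36105992 (minus strand) in a gene-dense window with Ndufa8, Morn5, Rbm18 and Mrrf, and it was the nearest gene of 8 of its 31 regions. Of the 3 regions open in all 7 libraries, 1 held the starts of Ndufa8 and Morn5, 1 held those of Rbm18 and Mrrf, and 1 lay inside Lhx6. The one inside the gene, chr2:36090897-36092022, had signals of 1269 and 943 in ectoderm, 622 and 361 in the Sox2-positive cells, 726 in the incisor, 448 in the lower molar and 500 in the upper molar. Its 7 summits lay within 13 bp, 13.9 kb from the start, in contrast to the start itself, which lay under a peak in 4 libraries.

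Downstream of Lhx6 a pair of regions inside Morn5, chr2:36065145-36065870 and chr2:36068251-36068857, were open in all 5 P2 libraries and in neither ectoderm library. Their signals were 272 and 208 in Sox2-positive replicate 1, 204 and 249 in replicate 2, 483 and 397 in the incisor, 1403 and 1376 in the lower molar, and 1605 and 1340 in the upper molar. The molar peaks ranked between 18.2% and 22.8% and the sorted-cell peaks between 81.6% and 98.9%, and the incisor peaks at 57.4% and 66.1%. By position the molars stood at 12242 to 15288 and the incisor and sorted cells at 33745 or later, so the molars ranked highest on both scales and the other 3 libraries overlapped. Still farther from the gene, chr2:36038525-36039676 inside Ndufa8 was open in both ectoderm libraries, with signals of 2308 and 1564, and in no P2 library in either list length. On the upstream side, chr2:36200838-36201755 at 95.9 kb was open in the lower molar (1181) and the upper molar (1428) and in no other library, with summits within 3 bp, in both list lengths.

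Lhx8 had the fewest peaks of the 5 genes, 49 summed over the libraries. The counts were 11 and 5 in ectoderm, 5 and 2 in the Sox2-positive cells, 7 in the incisor, 8 in the lower molar and 11 in the upper molar. The means, 8.0 ± 4.24 (SD, n = 2) and 3.5 ± 2.12 (SD, n = 2), differed by 4.5, about the spread of the ectoderm replicates, and 29.5% of genes had a larger difference. It was 1.5 without ectoderm replicate 1 and 7.5 without ectoderm replicate 2. At equal length the counts were 3 and 4, 4 and 2, 2, 2 and 2. Lhx8 lies at chr3:154306288-154330560 (minus strand), and none of its 20 regions was open in all 7 libraries in either list length.

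The region shared most widely around Lhx8 besides the start was chr3:154364455-154365262, 34.3 kb upstream, with signals of 956 and 582 in ectoderm, 442 in Sox2-positive replicate 1, 542 in the incisor, 980 in the lower molar and 1275 in the upper molar. It lacked a peak in Sox2-positive replicate 2, the shortest list. One region was open in both ectoderm libraries and in no P2 library, chr3:154402109-154402884 at 71.9 kb upstream (1691 and 472), in both list lengths. One was open in all 5 P2 libraries and in neither ectoderm library, chr3:154421531-154422286 at 91.3 kb upstream, with signals of 1126 and 434 in Sox2-positive cells, 986 in the incisor, 302 in the lower molar and 488 in the upper molar. At equal length it was open in the sorted cells and the incisor and in neither molar.

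**Figure D3:**
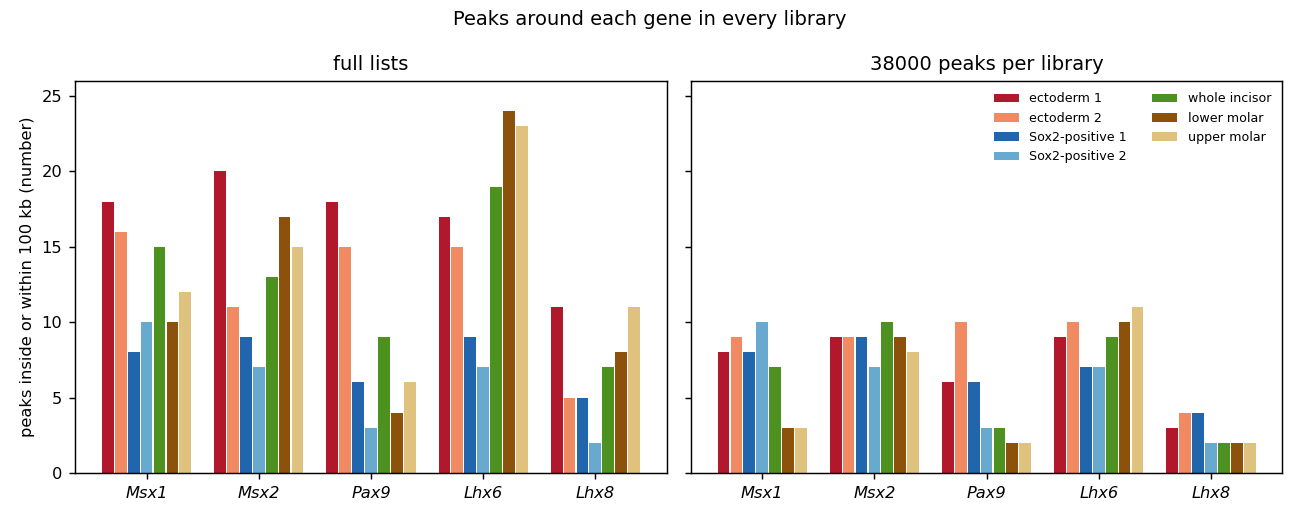
Number of peaks inside or within 100 kb of each gene (bars start at 0), 1 bar per library, in the full lists on the left and with 38000 peaks per library on the right. Ectoderm replicate 1 reaches 20 at Msx2 in the full list and 9 at equal length, and the molar bars at Lhx6 reach 24 and 23 in the full lists.

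The comparison of ectoderm with Sox2-positive cells sets first arch ectoderm at embryonic day 11.5 against cells sorted from the lower incisor at P2. Stage, tissue and way of isolation differ together here, so their parts cannot be told apart. In full lists 4 of the 5 genes (Msx1, Msx2, Pax9 and Lhx6) had more peaks in both ectoderm libraries than in both Sox2-positive libraries, as did 48.5% of all genes. None had more in both Sox2-positive libraries, and 1.92% of all genes did. At equal length 1 gene (Lhx6) had more in ectoderm against 22.5% of genes, and none more in Sox2-positive cells against 20.7%. With the 38000 chosen by signal there were 3 (Lhx6, Msx2 and Pax9) against 21.9%, and none against 21.6%. The median difference of the 5 genes was 8.0 in full lists and 1.0 at equal length, beside 3.0 and 0.0 over all genes. The 10 epithelial markers had medians of 7.75 and 1.75 and 8 of them were called in ectoderm in full lists, and whether the members' counts follow the share of epithelium was not tested. For each of the 4 genes the exact two-sided permutation p in full lists was 0.333, the smallest that 2 libraries against 2 can give, so no difference could reach 0.05. In region terms 21 of 126 (16.7%) were open in both ectoderm libraries and in no P2 library, against 11.7% of all regions, and 14 of 67 (20.9%) against 12.8% at equal length. Pax9 held 9 of the 21. By gene the shares were 21.4% for Msx1, 12.0% for Msx2, 40.9% for Pax9, 6.45% for Lhx6 and 5.0% for Lhx8. At equal length they were 7.14%, 23.1%, 41.7%, 20.0% and 12.5%. The 14 were not all among the 21. Some had P2 peaks in full lists that the shorter lists dropped, as at chr2:36021499-36022315 and chr2:36081070-36081947 around Lhx6. Regions open in all 5 P2 libraries and in neither ectoderm library were 7 of 126 (5.56%) against 4.61%, and 4 of 67 (5.97%) against 6.29%, both near the background.

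**Figure D4:**
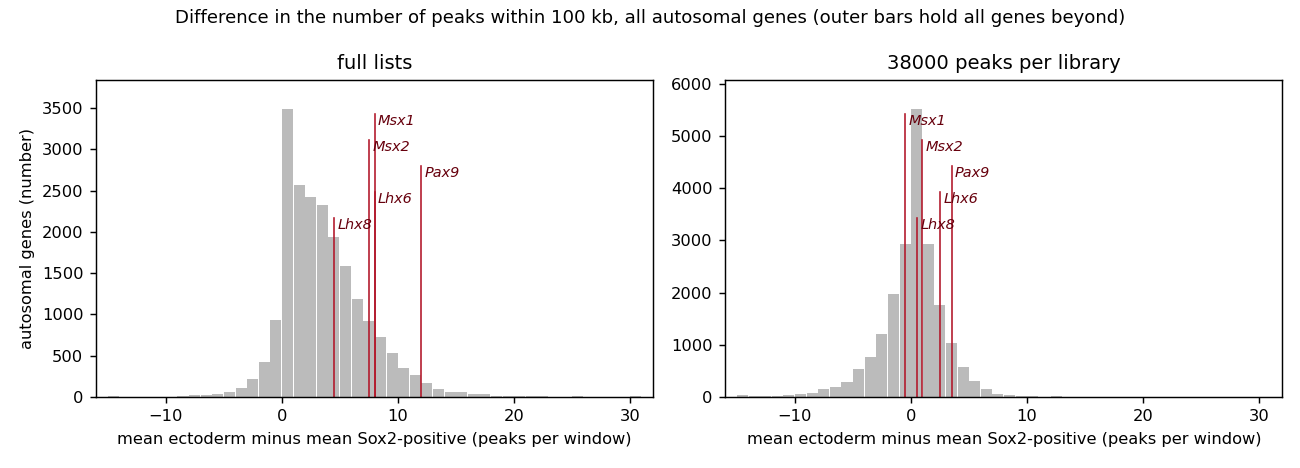
Number of autosomal genes by the ectoderm mean minus the Sox2-positive mean of peaks within 100 kb, in full lists (left) and with 38000 peaks per library (right); red lines mark the 5 genes and the outer bars hold all genes beyond. Pax9 stands farthest to the right at 12.0 and 3.5, and Msx1 moves from 8.0 to −0.5.

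A peak at the start in both ectoderm libraries and in neither Sox2-positive library was found at Lhx6 in full lists, as at 5.63% of genes with an annotated start. At equal length it was found at none of the 5 genes and at 3.36% of genes.

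The comparison of sorted cells with the whole lower incisor sets 2 libraries against 1. In full lists the incisor had more peaks than both Sox2-positive libraries at all 5 genes, as at 63.3% of genes, and no member had fewer, against 2.17%. At equal length Lhx6 and Msx2 had more in the incisor (17.3% of genes did), and Msx1 had more in both Sox2-positive libraries (22.9%). None of the 126 regions was open in both Sox2-positive libraries and not in the incisor, against 0.97% of all regions. At equal length there were 2, 1 each around Msx1 and Msx2, of 67, against 4.69%. Of the regions of Sox2-positive replicate 1 the incisor held 81.2%, and of those of replicate 2 it held 92.9%, while these made up 44.8% of the incisor's own regions in each case. The lower and upper molars held 81.2% and 78.1% of the regions of replicate 1, and 85.7% each of those of replicate 2. Whole-tooth lists are longer than the sorted lists, and these shares were not set beside those over all autosomal regions. Regions open in all 3 whole teeth and in neither Sox2-positive library were 15 of 126 (11.9%) against 6.3%, with 7 of the 15 around Lhx6. At equal length there were 2 of 67 (2.99%) against 2.27%.

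Between the whole incisor and the molars the members parted. In full lists both molars had more peaks than the incisor at Lhx6, Lhx8 and Msx2, as at 38.8% of genes, and the incisor had more at Msx1 and Pax9, as at 19.2%. At equal length both molars had more at Lhx6 (25.9% of genes), and the incisor had more at Msx1, Msx2 and Pax9 (26.7%). Msx2 thus changed sides with list length, and Lhx8 became level, with 2 peaks in the incisor and in each molar. Lhx6 on one side and Msx1 and Pax9 on the other did not change. At equal length Pax9 had 3 peaks in the incisor against 2 and 2 in the molars, a narrow margin. Regions open in both molars and not in the incisor were 13 of 126 against 11.9% of all regions, and 4 of 67 against 10.8% at equal length. Those open in the incisor and in neither molar were 12 of 126 against 9.24%, and 7 of 67 against 12.2%. With 1 library a tooth type these counts have no replicate check.

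The 13 regions open in all 7 libraries (10.3% of 126, against 14.2% of all regions) became 10 of 67 (14.9%, against 19.2%) at equal length. They had a median width of 1312 bp, as against 664 bp for regions open in both ectoderm libraries alone and 726 bp for those of the 5 P2 libraries alone. The same medians over all autosomal regions were 1357, 570 and 770 bp, so the members' regions had the widths of their pattern. None of the 7 regions of the P2 libraries alone lay within 5 kb of a member's start or inside a member's body, and 5 of the 21 ectoderm regions lay in a member's body. Of all 126 regions 23 lay in a member's body, so counts this small do not set the 2 patterns apart. Ectoderm replicates shared 98.3% of the regions of replicate 2 and 72.2% of those of replicate 1, and Sox2-positive replicates shared 71.9% of those of replicate 1 and 82.1% of those of replicate 2. The molars, 1 library each, shared 85.2% of the lower and 80.0% of the upper. Such shares depend on list length, and none over all autosomal regions was set beside them.

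**Figure D5:**
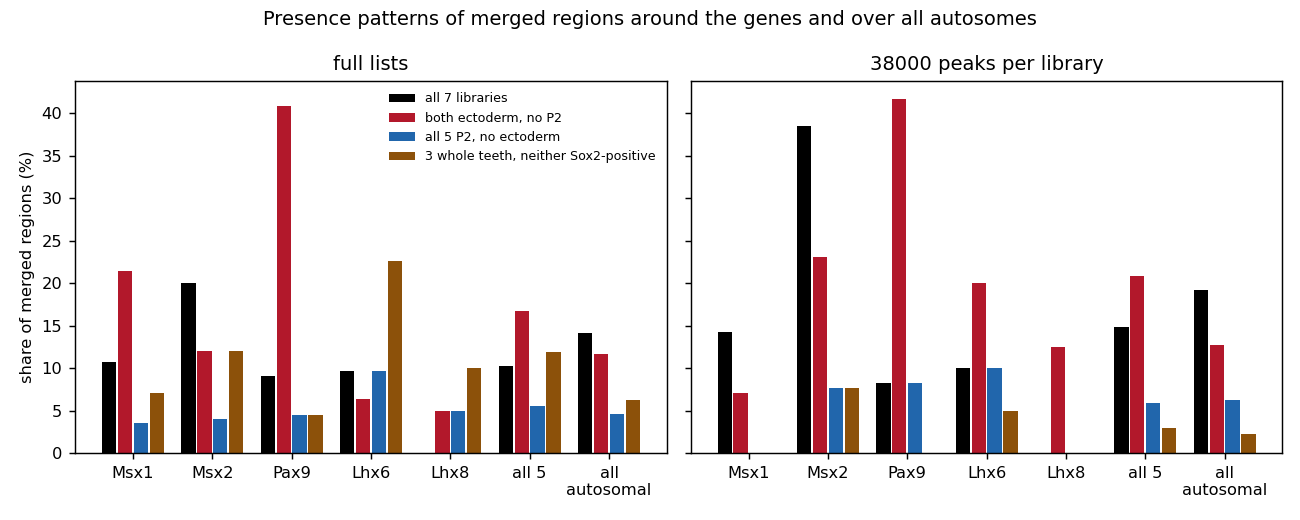
Share of merged regions (percent, bars start at 0) by presence pattern around each gene, around all 5 and over all autosomes, in full lists (left) and with 38000 peaks per library (right). The share open in both ectoderm libraries and no P2 library is 40.9% and 41.7% for Pax9, against 11.7% and 12.8% over all autosomes.

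Genes that signal to, act beside or respond to the members were read the same way from a list of 23. Of these 12 had more peaks in both ectoderm than in both Sox2-positive libraries in full lists, and 2 had fewer, against the 48.5% and 1.92% of all genes given above. At equal length the numbers were 8 and 6, against 22.5% and 20.7% of all genes, and by signal 6 and 6, against 21.9% and 21.6%. Among the 7 ligands, Bmp4, Edn1, Fgf8, Fgf9 and Shh had more in ectoderm in full lists and at equal length (by signal, all of these but Bmp4), and the median difference of the 7 was 6.0 and 2.0. Fgf8, which marks the oral ectoderm and induces Lhx6 and Lhx8 in the mesenchyme, had 30 and 18 peaks in ectoderm, 13 and 10 in the Sox2-positive cells, 13 in the incisor, 15 in the lower molar and 16 in the upper molar. At equal length the Fgf8 counts were closer, 14 and 14, 11 and 10, 6, 7 and 9 in the same order. The 9 transcription factors had medians of 3.0 and −0.5, and the 7 targets in the mesenchyme 2.5 and −1.0. The 2 genes with fewer in ectoderm in full lists were Inhba, an activin subunit that acts in tooth mesenchyme, and Ptch1, the Hedgehog receptor. Inhba had 3 and 2 peaks in ectoderm against 5 and 5 in Sox2-positive cells, and Ptch1 had 16 and 7 against 33 and 21. At equal length Bmp2, Gsc, Runx2 and Sdc1 joined them.

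The genes most like each member in the number of peaks over the 7 libraries at equal length were found by Pearson's r, as a description of 7 points that share list length. They were Hacd2 and Tarsl2 for Msx1 (r of 0.986 each), Atp6v1d and Vps33a for Msx2 (1.000 each), Nol7 and Pold3 for Pax9 (0.990 each), Art4 and Lpar6 for Lhx6 (0.988 and 0.981), and Wasf3 and Ndufs4 for Lhx8 (1.000 each). An r of at least 0.9 was reached by 372 of 16278 candidate genes with Pax9, 245 of 17170 with Lhx8, 162 of 14869 with Msx1, 69 of 13228 with Lhx6 and 9 of 13425 with Msx2.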

How the data were processed

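The 7 ATAC-seq libraries fall into 5 groups by their titles. Peaks were called by the authors, 1 list per library, with Genrich, per the deposited file names. The submitters' processing notes name mm10, FastQC, Trimmomatic, Bowtie2, deepTools and Genrich, without versions; read filters and the transposase offset are not given in the sources used here. The deposited signal (area under the significance curve, at least 200.0) and the deposited −log10 p, made by the authors' caller, are not normalized between libraries and served to rank and select peaks inside each list. The deposited score was not used. Peaks on the 19 autosomes were assigned to RefSeq gene bodies (GRCm38.p6) and starts, and merged at 1 bp of overlap, in Python 3.11.15 with pandas 2.3.3; the counting was checked on simulated peaks. No list was identical to another. Replicates are averaged with their SD, and the exact permutation test is used. The report names the 5 members, of the other genes those in the rarer direction, the region over each start, the strongest region of a pattern by its weakest rank, and the 2 most similar genes; the ligands, marker genes and further regions were singled out after their values were seen. Members, lists and motifs were chosen with earlier results of these data known. List positions of peaks, and the share of genes called in lists chosen by signal, were added after the data were seen. Alternatives changed list length, threshold, window, overlap, peak extent and replicates. Without a reference genome the letters of peaks were not used here, and exons and introns were not told apart.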

Additional observations from a re-analysis of the deposited data

How the results depend on the processing

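Most counts changed when fewer peaks of each list were kept, and depth is unknown, so what a longer list finds cannot be told apart from deeper sequencing. Cutting lists to equal length also sets a different −log10 p cutoff in each library. With 38000 peaks by −log10 p, 1 gene had more peaks in ectoderm than in Sox2-positive cells (4 in full lists), regions of the 5 P2 libraries without ectoderm numbered 4 (7) and those of the 3 teeth without Sox2-positive cells 2 (15). The differences between means were −0.5 for Msx1 (turned from 8.0), 1.0 for Msx2, 3.5 for Pax9, 2.5 for Lhx6 and 0.5 for Lhx8. With 38000 peaks by signal 3 genes had more in ectoderm, the last 2 region counts were 4 and 2, and the differences 1.0, 2.5, 4.5 and 2.0 for Msx1, Msx2, Pax9 and Lhx6. With the top 50% of each list the counts were 2 genes (Msx1 and Msx2), 8 regions in all 7 libraries, 8 of ectoderm alone, 1 of the P2 libraries and 4 of the teeth. The differences were 4.5, 2.5, 1.5 and 3.5 for Msx1, Msx2, Pax9 and Lhx6. A 50 kb window left 9 ectoderm regions and 3 P2 regions, with 4.5 for Pax9 and 3.5 for Lhx6. Counting nearest genes only left 12 and 3, with 10 for Msx1, 4.5 for Pax9 and 4.0 for Lhx6. Asking for 50% of a region to be covered left 6 regions in all 7 libraries. Leaving out 1 replicate gave 4 to 5 genes, 13 to 15, 21 to 35, 7 to 8 and 15 to 17 regions in the order above, 35 being ectoderm regions without ectoderm replicate 2, and differences of 7.0 to 9.0 for Msx1 and for Lhx6, 3.0 to 12.0 for Msx2, 10.5 to 13.5 for Pax9 and 1.5 to 7.5 for Lhx8. Start peaks moved at Lhx6 (0 and 2 libraries at equal length by −log10 p and by signal) and at Lhx8 (2 by −log10 p). Apart from Msx1 by −log10 p, the differences stayed positive in all 11 settings, the main one included. Most settings used full lists, where the median difference over all genes was itself 3.0, against 0.0 with 38000 peaks by −log10 p. A positive sign in full lists is therefore common to most genes and is no trait of the members. Asking for 50% coverage of a region, or taking 200 bp around the summit, gave the main differences unchanged and so adds no check on them. The settings that left out a replicate used full lists, so they do not bear on list length. Shorter lists and narrower windows hold fewer peaks; beyond that the cause was not tested. No paired analysis was possible because the results are counts of peaks and come from no model across libraries.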
